A study of Mus musculus with 54 samples.

Results

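The response to 7 days of AICAR was compared between the dentate gyrus (DG) and the lateral entorhinal cortex (LEC) of the same treatment groups. The quantity compared is the difference of effects, which is ACR7 minus CTR7 in the DG less ACR7 minus CTR7 in the LEC. The 12 arrays that enter it were chosen by their labels, 3 for each of DG CTR7, DG ACR7, LEC CTR7 and LEC ACR7, out of 54 arrays in the series. The study set AICAR injections against wheel running over 7 and 14 days and measured RNA on Illumina mouse bead arrays. All mice were C57BL/6J males of about one month, housed singly and injected daily into the peritoneum, CTR7 with saline and ACR7 with AICAR at 500 mg/kg for 7 days. Each array held RNA of 1 tissue sample, and the 3 samples with the purest and most concentrated RNA had been taken from each group. The sample titles carry a number, read here as that of the mouse. On that reading the 12 arrays came from 8 mice, and 4 of them, 2 controls and 2 treated, gave both regions.

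AICAR is an adenosine analog that cells phosphorylate to a mimic of AMP, which switches on AMP-activated protein kinase (AMPK), the cell's sensor of low energy. The DG is the granule cell field of the hippocampus in which neurons are born throughout life, and the LEC is one of the cortical areas that send it their axons. Clock genes such as Per2, Dbp and Ciart run through a daily cycle of transcription in most tissues, the brain included.

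Levels are given as log2 of the array signal after each array was divided by the SD of its log2 intensities and put on 1 common scale. A difference of 1 is a doubling of signal only on arrays whose SD equals the common 1.799. Fold changes are in these scaled units. Where AICAR lowered a level, the fold change carries a minus sign (CTR7 over ACR7). A gene was called when limma's moderated test gave a Benjamini-Hochberg adjusted p under 0.05 over the 8697 genes tested. The arrays carried the marks of their tissue. C1ql2, a synaptic protein of granule cells, lay between 12.17 and 13.60 on DG arrays and between 6.36 and 8.84 on LEC arrays. Tbr1, a transcription factor of cortical neurons, lay between 7.60 and 8.78 in the DG and between 9.20 and 9.95 in the LEC. Arrays of a group correlated at 0.971 to 0.991, and 11775 to 12813 probes were detected per array. The spread of log2 intensities over the probes of an array, its SD, was 1.88 to 2.14 on the ACR7 arrays of the DG and 1.70 to 1.83 on their controls (exact permutation p = 0.1, two-sided, the smallest that 3 against 3 arrays allow). In the LEC it was 1.74 to 1.79 against 1.68 to 1.85 (exact permutation p = 0.5).

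The effect of 7 days of AICAR differed between the regions for 22 genes, 0.253% of those tested. For 14 of them (0.161%) the change was more positive in the DG and for 8 (0.092%) in the LEC, and the estimated effects of all 22 had opposite signs in the regions. Of the 22, 8 were called in the DG alone, 10 in the LEC alone, 1 in both and 3 in neither. The 3 ACR7 arrays lay apart from the 3 CTR7 arrays in both regions, in opposite directions, for 13 of the 22 genes, beside 2.05% of all genes. Since the 22 were selected on the difference itself, their opposite signs and separate arrays are a description. An unadjusted p under 0.05 was found for 1528 genes, and the false discovery rate of 0.3 named in the study's methods was met by 1625 (18.7%). The count was 0 in a fit of the 12 arrays alone and 0 with the 4 mice that gave both regions. It was 5 after quantile normalization (1 higher and 4 lower in the DG than in the LEC) and 27 after median centring (all 27 higher). It was also 0 without DG CTR7 replicate 3, DG ACR7 replicate 3 or LEC CTR7 replicate 1, between 1 and 11 without DG CTR7 replicate 1, DG ACR7 replicate 2 or any 1 LEC ACR7 array, and 36, 96, 106 and 114 without DG ACR7 replicate 1, DG CTR7 replicate 2, LEC CTR7 replicate 2 and LEC CTR7 replicate 3.

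**Figure D1:**
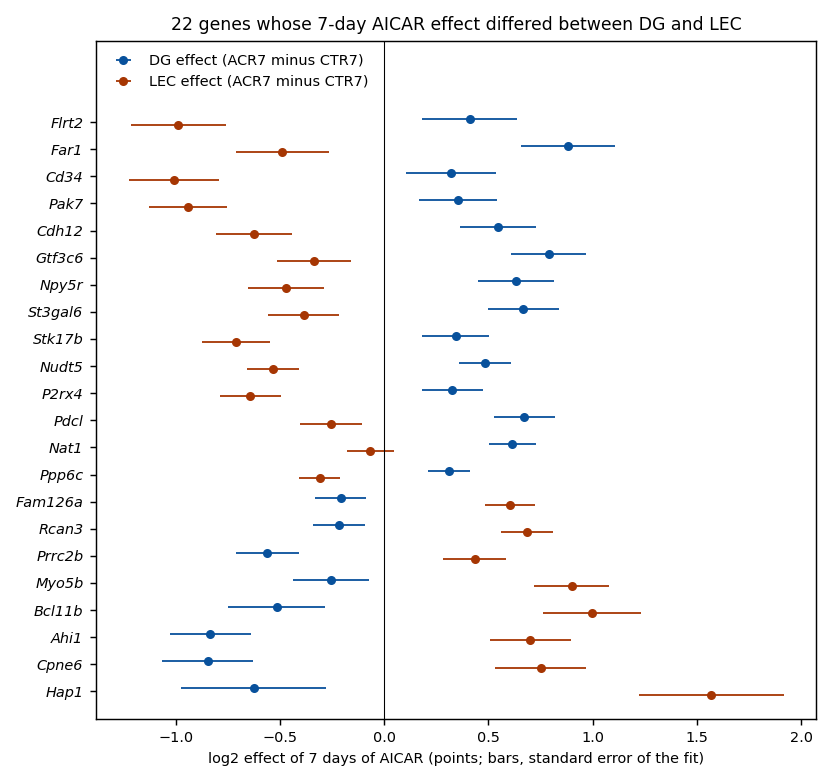
Log2 effect of 7 days of AICAR (ACR7 minus CTR7) in the DG and in the LEC for the 22 genes called in the difference of effects. Points are estimates of the fit and bars their standard errors. For 14 genes the DG effect lies above 0 and the LEC effect below it, and for 8 genes the order is turned.

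Nudt5, which hydrolyses ADP-ribose, had the smallest adjusted p. The gene lies on chromosome 2 at 5845034 to 5870820 (RefSeq, GRCm38.p6). Its level in the DG was 8.12, 8.32 and 8.12 in CTR7 and 8.52, 8.60 and 8.90 in ACR7. In the LEC it was 8.65, 8.55 and 8.58 in CTR7 and 8.08, 8.09 and 8.004 in ACR7. Every treated array was above the controls in the DG and below them in the LEC. It was the single gene called in both regions with opposite directions, a fold change of 1.40 in the DG (adjusted p = 0.0456) and -1.45 in the LEC (adjusted p = 0.0164). The difference of effects was 1.02 (SE 0.18, adjusted p = 0.0101, n = 3 per group), and 0.66 on its other probe.

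Several genes with a more positive effect in the DG encode proteins of the cell surface and of signalling. Flrt2, an adhesion and guidance molecule, fell in the LEC from 8.77, 8.35 and 8.41 to 7.45, 7.67 and 7.44 (fold change -1.98, adjusted p = 0.0161). In the DG its levels were 7.66, 7.67 and 7.65 in CTR7 and 7.79, 8.01 and 8.41 in ACR7, which do not overlap but miss the threshold (adjusted p = 0.328). The difference was 1.40 (SE 0.33, adjusted p = 0.0483).

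Pak7, a p21-activated kinase of neurons, fell in the LEC from 8.33, 8.04 and 7.92 to 7.06, 7.15 and 7.24 (fold change -1.92, adjusted p = 0.00566), while its DG levels were 7.16, 7.16 and 6.97 against 7.42, 7.19 and 7.73. Cd34, a sialomucin of endothelial and blood precursor cells, fell in the LEC from 8.24, 7.90 and 7.18 to 6.83, 6.55 and 6.94 (fold change -2.01, adjusted p = 0.00883). Its DG arrays overlapped. The 12 endothelial genes tested had a median effect of -0.34 in the LEC and 0.02 in the DG, with none called in the LEC and 1, Itm2a, called higher in the DG (fold change 1.66, adjusted p = 0.0456). Their part in the Cd34 result was not tested. Stk17b, a kinase of the death-associated family, and P2rx4, a cation channel opened by ATP, fell in the LEC as well, with fold changes of -1.64 and -1.56 (adjusted p = 0.0159 for both genes). Their differences of effects were 1.05 and 0.97, and 0.57 on the other probe of P2rx4.

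For other genes of this direction the change that passed the test was the one in the DG. Far1, a reductase that makes the fatty alcohols of ether lipids, rose from 7.98, 8.08 and 7.37 in DG CTR7 to 8.51, 8.57 and 9.002 in DG ACR7 (fold change 1.84, adjusted p = 0.0456). In the LEC it was 8.51, 8.14 and 8.72 against 8.10, 8.13 and 7.64, so that the treated arrays lay below the controls there. Gtf3c6, a subunit of a general factor of RNA polymerase III, rose from 7.19, 7.15 and 6.55 to 7.68, 7.64 and 7.92 in the DG (fold change 1.73, adjusted p = 0.0336) with overlapping arrays in the LEC. St3gal6, a sialyltransferase, Pdcl, a phosducin-like partner of G protein beta-gamma dimers, and Nat1, an arylamine acetyltransferase, rose in the DG with fold changes of 1.59, 1.59 and 1.53. Their LEC fold changes were -1.31, -1.19 and -1.05, and none was called. Cdh12, a cadherin, Npy5r, a receptor of neuropeptide Y, and Ppp6c, the catalytic subunit of protein phosphatase 6, were called in neither region, with differences of effects of 1.17, 1.10 and 0.62.

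Among the 8 genes with a more positive effect in the LEC, Ahi1, a protein of the cilium base, had the smallest adjusted p. It lies on chromosome 10 at 20952232 to 21080429. It fell in the DG from 12.52, 12.15 and 12.87 to 11.90, 11.55 and 11.61 (fold change -1.78, adjusted p = 0.0386). In the LEC it was 11.02, 11.43 and 11.42 in CTR7 and 11.96, 12.18 and 11.82 in ACR7 (fold change 1.63, adjusted p = 0.0561). The groups do not overlap in either region, and the difference was -1.54 (SE 0.28, adjusted p = 0.0103). After median centring it was -0.80 (adjusted p = 0.0788).

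Hap1, which binds huntingtin and Ahi1 and takes part in intracellular transport, had been discussed by the study for AICAR in the DG. It showed the largest difference of the 22 genes, -2.20 (SE 0.50, adjusted p = 0.0467). It rose in the LEC from 10.57, 10.76 and 12.21 to 12.76, 12.98 and 12.51 (fold change 2.97, adjusted p = 0.0127). LEC CTR7 replicate 3 was thus close to the treated arrays. In the DG it was 12.32, 12.55 and 12.35 against 12.06, 11.58 and 11.75 (adjusted p = 0.326). On its other 2 probes the difference was -0.86 and -0.75, with LEC effects of 1.10 and 0.82 and DG effects of 0.24 and 0.07, so the lower DG level was seen on 1 probe of 3.

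Cpne6, a calcium-dependent membrane-binding protein of neurons, fell in the DG from 14.04, 13.74 and 14.29 to 13.45, 13.23 and 12.88 (fold change -1.80, adjusted p = 0.0456), and Prrc2b fell there too (fold change -1.48, adjusted p = 0.0488). The difference for Cpne6 was -1.60, but -0.93 after quantile normalization and -0.64 after median centring (adjusted p = 0.0752 and 0.119). For Prrc2b it was -0.997, and -0.27 after median centring (adjusted p = 0.441). Over the 2899 brightest genes the median DG effect was -0.09, and 0.41 after median centring. The part of the scaling in these falls was not tested. Bcl11b, a zinc finger transcription factor of deep-layer, striatal and hippocampal neurons, rose in the LEC from 10.45, 11.00 and 11.11 to 11.83, 11.85 and 11.86 (fold change 2.00, adjusted p = 0.0166). Its DG levels overlapped, at 13.00, 12.27 and 12.86 against 12.43, 12.31 and 11.86. Myo5b, a motor of recycling endosomes, Rcan3, a regulator of calcineurin, and Fam126a, a part of a phosphoinositide kinase complex, rose in the LEC with fold changes of 1.86, 1.61 and 1.52 (adjusted p = 0.00608, 0.0025 and 0.00566). Myo5b was detected on 1 of 3 LEC CTR7 arrays.

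**Figure D2:**
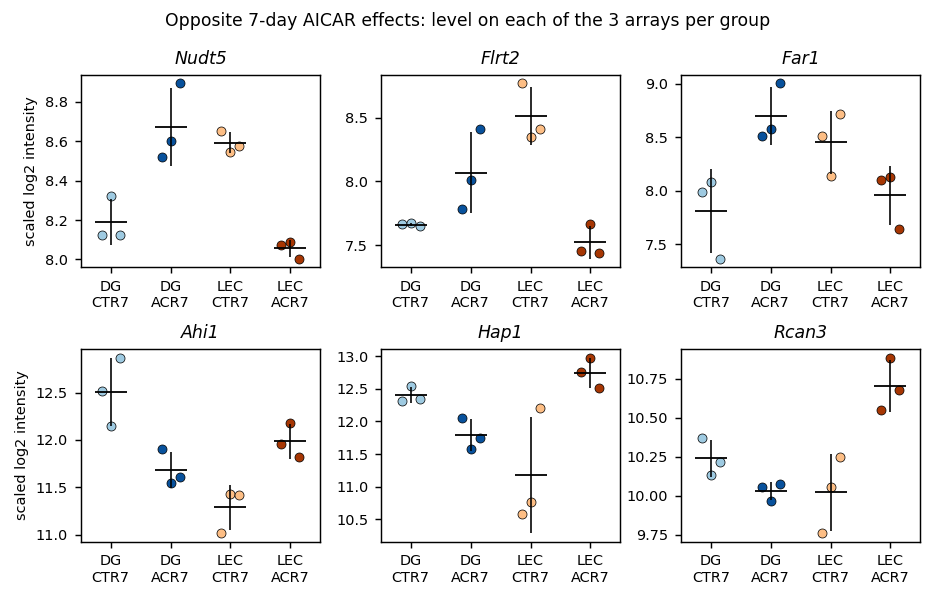
Scaled log2 intensity of Nudt5, Flrt2, Far1, Ahi1, Hap1 and Rcan3 on each of the 3 arrays of a group, with bars for the mean and SD. Treated arrays lie above their controls in the DG and below them in the LEC for the upper 3 genes and the other way round for the lower 3. One LEC CTR7 array of Hap1, at 12.21, stands near the treated ones.

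In each region taken alone, 113 genes were called in the DG (1.3% of those tested), 56 higher (0.644%) and 57 lower (0.655%), and 120 in the LEC (1.38%), 63 higher (0.724%) and 57 lower (0.655%). Of these, 104 in the DG and 109 in the LEC were not called in the difference of effects, so a call in a single region did not show that the regions differed. The split by direction in the DG moved with the scaling, to 10 higher and 2 lower after quantile normalization, 6 and 0 after neqc (background correction with quantile normalization) and 1762 and 17 after median centring. At the false discovery rate of 0.3, 48 genes were called in both regions with the same direction and 61 with opposite directions, which is 2.52% and 3.21% of the 1901 genes called in the DG at that rate (21.9% of those tested) and 6.96% and 8.84% of the 690 called in the LEC (7.93%). The DG count is less steady than that of the LEC. It was 0 in a fit of the 12 arrays alone, 0 without DG CTR7 replicate 3 or DG ACR7 replicate 2, 1 without DG ACR7 replicate 3, 33 to 66 without any 1 LEC ACR7 array, 180 without DG ACR7 replicate 1 and 474 without DG CTR7 replicate 2. The LEC count was 10, 12, 27 and 40 without LEC CTR7 replicate 1, LEC CTR7 replicate 2, LEC ACR7 replicate 1 and LEC ACR7 replicate 2, and 300 without LEC CTR7 replicate 3.

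Genes shared by both regions were sought with the mean of the 2 effects, which can also pass the test on a change in 1 region. Shared thus means only called in this mean with the same sign in both regions. The mean effect was called for 44 genes, 0.506% of those tested, 30 higher (0.345%) and 14 lower (0.161%) after AICAR. All 44 had the same sign in both regions. The split was 17 and 15 after quantile normalization and 146 and 15 after median centring. For 29 of them, 23 higher and 6 lower, treated and control arrays did not overlap in either region, where 1.29% of all genes did so, and 21 of the 29 were detected on all 12 arrays. Since the 44 were selected on the mean effect of these arrays, their shared signs and separate arrays are a description. Of the 44, 1 was called in each region on its own, and 3 were detected on no DG array. None of the 44 was called in the difference of effects. The count was 4 without LEC CTR7 replicate 2 and 11 to 25 without DG ACR7 replicate 2, DG ACR7 replicate 3, DG CTR7 replicate 3, LEC CTR7 replicate 1 or any 1 LEC ACR7 array. It rose to 90 without DG CTR7 replicate 2 and to 187 without LEC CTR7 replicate 3.

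The clock genes Ciart and Dbp kept their call in the mean effect in 23 of 24 alternative settings, as did Rhbdl3, and lost it with the mice measured in both regions alone. Ciart, a repressor of the CLOCK and BMAL1 activators, lies on chromosome 3 at 95878500 to 95882257. Its level was 7.81, 7.74 and 7.57 in DG CTR7 and 8.43, 8.59 and 8.54 in DG ACR7. In the LEC it was 8.28, 8.25 and 8.54 in CTR7 and 8.87, 8.94 and 9.28 in ACR7. All treated arrays were above the controls of their region. It was the single gene called with the same direction in each region on its own, with fold changes of 1.76 in the DG (adjusted p = 0.0336) and 1.596 in the LEC (adjusted p = 0.0367). The mean effect was 0.74 (SE 0.12, adjusted p = 0.00199), and the regions differed by 0.14 (SE 0.25). A second probe gave 0.95 in the DG and 0.63 in the LEC.

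Dbp, a transcription factor that cycles with the clock, was 11.52, 11.51 and 11.38 in DG CTR7 and 12.03, 12.39 and 11.59 in DG ACR7. It was 11.66, 11.95 and 11.90 in LEC CTR7 and 12.84, 12.59 and 12.80 in LEC ACR7. The mean effect was 0.72 (SE 0.14, adjusted p = 0.0114), with a fold change of 1.86 in the LEC (adjusted p = 0.0159) and 1.45 in the DG (adjusted p = 0.138). Per2, a core component of the clock's negative arm, was named after its values were seen. It had a mean effect of 0.62 (adjusted p = 0.0286), but its arrays overlapped in both regions. DG ACR7 replicate 2, at 9.61, lay below 2 of its controls, and LEC ACR7 replicate 1, at 9.40, lay below LEC CTR7 replicate 3, at 9.54. Of 18 clock genes tested, these 3 were called in the mean effect, all higher, beside 0.345% of all genes, and none in the difference of effects. The smallest p of the difference among them belonged to Rorb and Rora, activators of the clock gene Bmal1, at 0.87 and 0.56 (adjusted p = 0.0958 and 0.156).

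The stretch before the start of Ciart, the gene called in both regions, is shown because it holds the motif through which CLOCK and BMAL1 bind. It is mouse chr3:95882258-95882478, minus strand (RefSeq, GRCm38.p6), printed in the direction of transcription, and capitals mark the E-box CACGTG, which reads the same on both strands.
Ciart: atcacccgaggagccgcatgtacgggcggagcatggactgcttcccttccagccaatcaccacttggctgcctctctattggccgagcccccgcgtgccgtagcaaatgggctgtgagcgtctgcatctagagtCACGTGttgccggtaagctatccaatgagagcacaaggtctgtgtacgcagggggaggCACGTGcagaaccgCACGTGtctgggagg
The stretch holds 3 E-boxes. In windows of 250 bases before the start, the motif was found in 606 of the 7095 tested genes with a promoter in the table, 8.54%, in 5 of 35 genes of the shared set and in 4 of 19 genes called in the difference. Dbp had none in this window. The D-box TTATGTAA, searched on both strands, was found in 0.564% of the tested genes and in 0 genes of both sets. A match is a run of letters and shows no binding.

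Other shared genes came from many functions. Rhbdl3, a rhomboid-like membrane protein of neurons, rose with a mean effect of 0.77 (SE 0.13, adjusted p = 0.00199), from 6.88, 6.99 and 7.32 to 7.51, 7.75 and 7.85 in the DG and from 6.98, 6.91 and 7.61 to 7.97, 8.14 and 8.09 in the LEC. Cacng5, an auxiliary subunit of AMPA receptors, had the largest positive mean effect of the 44, 0.95 (adjusted p = 0.0114). Its levels were 8.72, 8.18 and 8.60 against 9.14, 9.36 and 9.26 in the DG and 7.71, 7.93 and 8.71 against 9.14, 9.68 and 9.02 in the LEC, with no overlap in either. Smpdl3b, a relative of acid sphingomyelinase, and Nxn, a thioredoxin-like oxidoreductase, rose by 0.82 and 0.67 in the mean effect (adjusted p = 0.0179 and 0.041). Smpdl3b drew mainly on the LEC, with effects of 1.29 there and 0.35 in the DG. For Nxn they were 0.66 and 0.67.

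Among shared genes that were lower, Zeb2, a repressor in neural and glial development, went from 12.42, 11.99 and 12.88 to 11.78, 11.41 and 11.49 in the DG and from 10.42, 11.02 and 10.43 to 10.13, 10.37 and 10.02 in the LEC. Its mean effect was -0.66 (adjusted p = 0.0196). The other 5 of the 6 with the largest negative mean effects drew mainly on the LEC. Tnnc1, slow troponin C, fell there from 9.59, 10.91 and 8.94 to 7.86, 7.95 and 8.70 (fold change -3.13, adjusted p = 0.00213). In the DG it was 7.22, 7.54 and 7.54 against 7.38, 7.05 and 7.08, which overlap, and the difference of effects was 1.39 (adjusted p = 0.0927).

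R3hdm1 and Gpr26, an orphan receptor, had LEC effects of -1.45 and -1.19 and DG effects of -0.10 and -0.22. The other probe of R3hdm1 gave -0.37 in the LEC. Hspb3, a small heat shock protein, and Cd6, a receptor of lymphocytes, were detected on none of the 6 DG arrays, so their calls rest on the LEC, where the fold changes were -2.28 and -2.19.

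**Figure D3:**
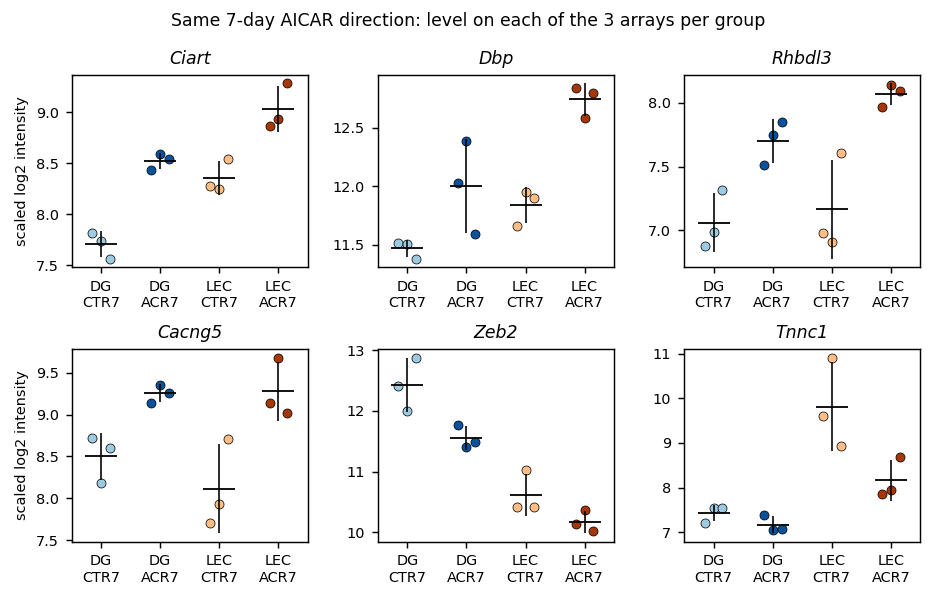
Scaled log2 intensity of Ciart, Dbp, Rhbdl3, Cacng5, Zeb2 and Tnnc1 on each of the 3 arrays of a group, with bars for the mean and SD. For the first 5 genes treated and control arrays do not overlap in either region, and for Tnnc1 they do not overlap in the LEC and overlap in the DG.

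Further shared genes, also named after their values were seen, touch adenosine, stress hormone and synaptic functions. Nt5e, the surface enzyme that makes adenosine from AMP, had effects of 0.63 in the DG and 0.53 in the LEC (mean effect adjusted p = 0.0345). Fkbp5, a chaperone partner induced by glucocorticoids, had 0.61 and 0.47 (adjusted p = 0.041), and Srm, spermidine synthase, 0.63 and 0.50 (adjusted p = 0.0196). Syt1, the calcium sensor of vesicle release, and Mef2c, a transcription factor of neurons, were lower, with -0.48 and -0.47 for Syt1 and -0.59 and -0.47 for Mef2c (adjusted p = 0.0385 for both genes). The DG arrays of Mef2c overlapped. Syt1 and Mef2c are bright, with DG CTR7 means of 12.91 and 12.37. The median DG effect of the 2899 brightest genes was -0.09, and 0.41 after median centring. Nrarp and Id4, a feedback regulator of Notch and an inhibitor of basic helix-loop-helix factors, were the 2 of 13 genes of the Notch and Id list called in the mean effect, both higher, beside 0.345% of all genes.

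Genes through which AICAR is handled or acts were not called in the difference. None of 16 AMPK subunits, upstream kinases and partners was called in the DG, in the LEC, in their mean or in their difference, and the median difference was -0.02 beside 0.04 for all genes. Prkag2, a gamma subunit, and Sirt1, a deacetylase, had the smallest p in that list, with differences of -0.41 and 0.59 (adjusted p = 0.256 and 0.259). Of 14 genes of adenosine and AICAR metabolism and their receptors, 11 had a more positive effect in the DG and none was called in the difference, with a median of 0.16 that became -0.02 after quantile normalization. Pnp, purine nucleoside phosphorylase, had a difference of 0.67 and Aprt, adenine phosphoribosyltransferase, of -0.43 (adjusted p = 0.102 and 0.217).

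Arhgap32, Vegfa, Bdnf and Myl4, which the study had measured by RT-qPCR or named for AICAR, were not called in the difference. Arhgap32 was 10.41, 10.28 and 10.58 in DG CTR7 and 9.87, 9.20 and 9.68 in DG ACR7, without overlap, and 10.45, 10.79 and 10.83 against 10.04, 10.51 and 10.74 in the LEC. Its DG fold change of -1.80 missed the threshold (adjusted p = 0.0735), as did the difference of -0.59 (SE 0.37, adjusted p = 0.414). Vegfa, the vascular growth factor, had a difference of 0.37 (SE 0.20, adjusted p = 0.31), and Bdnf, the neurotrophin, of 0.28 (SE 0.31, adjusted p = 0.677).

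Myl4, a myosin light chain, fell in the LEC from 11.07, 11.53 and 9.89 to 9.22, 9.15 and 9.88 (fold change -2.67, adjusted p = 0.00755), while all 6 DG arrays lay between 7.42 and 7.89. The difference of 1.59 missed the threshold (adjusted p = 0.0732). It was 2.05 without LEC CTR7 replicate 3 and 1.24 without LEC CTR7 replicate 2. Of 7 muscle-type genes, Myl4 and Tnnc1 were the 2 called lower in the LEC, beside 0.655% of all genes. The study had already named both for AICAR, so the count is not independent of these samples.

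Genes of other brain regions moved with treatment in the LEC. Of 10 tested markers of hypothalamus and amygdala, 6 were called higher in LEC ACR7, beside 0.724% of all genes, and none in the DG. Their median effect was 1.58 in the LEC, 0.06 in the DG and -1.64 in the difference, in which none passed the test. The detection filter favours the count of 6, since a gene could enter through the group where it is high. Ecel1 entered through LEC ACR7 alone. Of the 15 markers on the array, 10 were detected on all LEC ACR7 arrays and 4 on all LEC CTR7 arrays. The count of 6 is thus a description. The list included Igsf1 and Nr2f2, which the study had already named for AICAR in the LEC, so its direction is not independent of these samples. Ecel1, a peptidase of neurons, rose in the LEC from 6.06, 6.01 and 7.17 to 8.28, 8.54 and 8.23 (fold change 3.82, adjusted p = 0.00408), with a difference of -1.90 (adjusted p = 0.0822). It was detected on 1 of the 3 LEC controls and on 1 of 3 arrays in each DG group.

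Gal, the precursor of galanin, was detected on no LEC CTR7 array and on all 3 LEC ACR7 arrays, at least 1.69-fold higher by the bound that the dimmest detected probes set (adjusted p = 0.016). The bound sets the treated mean against the lowest signal of a detected probe, or the gene's own signal if that is higher, on each control array. The difference for Gal was -1.88 (adjusted p = 0.0732), with DG levels of 8.15, 7.64 and 7.01 against 7.51, 6.77 and 7.42.

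Igsf1, a membrane protein of pituitary and hypothalamus, was 6.57, 6.51 and 8.05 in LEC CTR7 and 9.01, 9.17 and 8.45 in LEC ACR7 (fold change 3.57, adjusted p = 0.00602). The difference was -1.77 (adjusted p = 0.0958), and -1.45 and -0.31 on its other probes. Nr2f2, a nuclear receptor, was 6.53, 6.69 and 8.43 against 8.81, 8.74 and 8.69 (adjusted p = 0.0256), with a difference of -1.41 (adjusted p = 0.171) and of -0.41 on its other probe. In Ecel1, Igsf1 and Nr2f2, LEC CTR7 replicate 3 was the control nearest to the treated arrays. Without it their differences were -2.26, -2.26 and -2.01 (adjusted p = 0.0235, 0.0179 and 0.0322). Leaving out the control nearest to the treated arrays widens a difference by itself, so these values are a description. Without LEC CTR7 replicate 2 the differences were -1.70 for Ecel1 and -1.49 for Igsf1. Without LEC CTR7 replicate 1 that of Nr2f2 was -1.05.

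Averaged over the 15 markers of this list on the array, the level was 6.41, 6.52 and 7.11 in LEC CTR7, 7.80, 7.62 and 7.71 in LEC ACR7 and 6.63 to 6.89 over the DG arrays. On the LEC arrays, 7 of the 15 were detected on no control and 4 on no treated array. The 8 striatal markers averaged 7.85, 8.17 and 8.04 in LEC CTR7 and 8.199, 8.73 and 8.88 in LEC ACR7, with 7.54 to 7.70 in the DG. All 7 striatal genes tested had a more positive effect in the LEC, but none was called. Markers of hippocampal pyramidal neurons averaged 7.69, 7.99 and 8.22 in LEC CTR7 and 8.58, 8.34 and 8.48 in LEC ACR7, without overlap, and 7.76 to 9.01 against 8.55 to 9.11 in the DG, with overlap. Of their 9 genes tested, 7 had an LEC effect above 0 (median 0.43), and Cacng5, also a member of this list, was called. Of the striatal genes, Drd2, the dopamine D2 receptor, had a difference of -1.01 and Rgs9, a striatal regulator of G protein signalling, of -1.22 (adjusted p = 0.228 and 0.321). Drd2 was detected on all 3 LEC ACR7 arrays, but on 1 of 3 in LEC CTR7, 2 in DG CTR7 and 1 in DG ACR7. It entered the test through LEC ACR7 alone, so the detection filter favours the shared direction of the 7 striatal genes, which is a description.

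The 12 markers of cortical layers averaged 9.33, 9.15 and 9.32 in LEC CTR7 and 9.10, 9.13 and 9.14 in LEC ACR7. Of the 11 tested, 8 had a more positive effect in the DG and Bcl11b was called in the other direction. In tissue, fewer or more cells of a kind and less or more RNA per cell cannot be told apart. The part of these markers in the LEC calls, Hap1 and Bcl11b among them, was not tested.

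In the DG, the choroid plexus list stood apart on 1 array. Its 8 markers averaged 6.42, 10.06 and 6.67 in DG ACR7 and 6.20 to 6.37 in DG CTR7. Ttr, the transthyretin of choroid plexus, reached 14.01 on DG ACR7 replicate 2, against 6.70 to 8.63 on the other DG arrays. None of the 4 choroid genes tested was called, and their median difference of 0.90 was 0.02 without that array. Without that array the difference was called for 10 genes and the DG effect for 0.

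**Figure D4:**
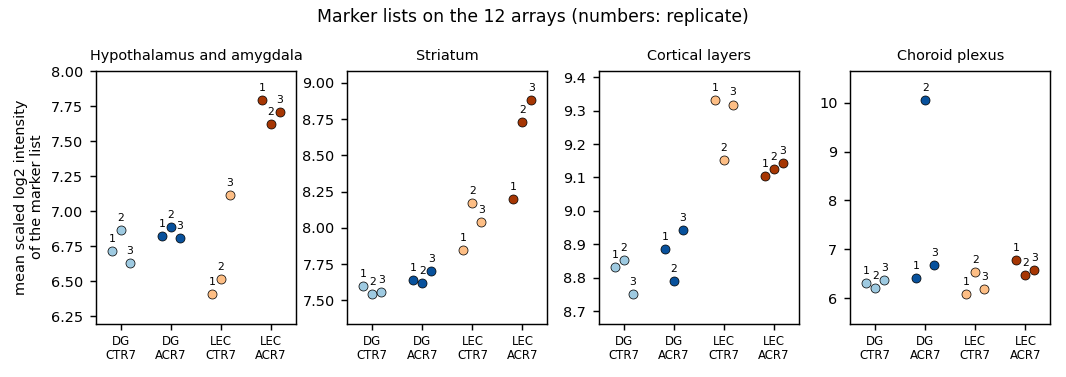
Mean scaled log2 intensity of 4 marker lists on each of the 12 arrays, by group, with the replicate number above each point. Hypothalamus and amygdala markers are at 7.62 to 7.80 on LEC ACR7 arrays and 7.11 on LEC CTR7 replicate 3, and choroid plexus markers at 10.06 on DG ACR7 replicate 2.

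Neuropeptide precursors overlapped with the hypothalamic list. Of 19 tested, 15 had a more positive effect in the LEC, with a median difference of -0.41 that became 0.08 after median centring. The median of all genes went from 0.04 to 0.34 between these scalings. Of the 19, 3 were called higher in the LEC, beside 0.724% of all genes, and 1 lower in the DG, beside 0.655%. Vip, made by cortical interneurons, went the other way, with 7.35, 7.63 and 7.73 against 8.03, 8.13 and 8.09 in the DG and 10.48, 10.12 and 9.95 against 9.69, 9.45 and 9.53 in the LEC. Neither region overlapped, and the difference of 1.15 missed the threshold (adjusted p = 0.0824). It was 1.26 without LEC CTR7 replicate 3 and 1.004 without LEC CTR7 replicate 1.

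Of 47 potassium channel genes, 35 had a more positive effect in the DG than in the LEC (median 0.25), as had 4800 of the 8697 genes tested (median 0.04). Kcnip4 was called higher in the DG and Kcnh5 lower in the LEC, where 0.644% and 0.655% of all genes were. Kcnip4, a channel-interacting protein, had a difference of 1.03 (adjusted p = 0.0732), and Kcnh5 of 0.58 (adjusted p = 0.0824). That of Kcnh5 was 0.65 without LEC CTR7 replicate 3 and 0.49 without LEC CTR7 replicate 1. Kcnh5 was detected in the LEC controls alone and was at least 1.2-fold lower in LEC ACR7. It entered the test through the LEC controls, where it is high, so the detection filter favours its call, which is a description.

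Of 12 genes of newborn neurons and progenitors, 10 had a more positive effect in the LEC and none was called. Their median of -0.25 became 0.04 after median centring, while that of all genes went from 0.04 to 0.34. Calb2, calretinin, also found in interneurons, went from 11.78, 12.08 and 12.10 to 11.81, 11.30 and 11.11 in the DG and from 9.75, 9.49 and 10.45 to 11.08, 11.15 and 10.69 in the LEC. The difference was -1.66 (adjusted p = 0.0908), -1.94 without LEC CTR7 replicate 3 and -1.46 without LEC CTR7 replicate 2. Its other probe gave a difference of -0.47, with a DG effect of 0.37 in place of -0.59. Nes, nestin, had -0.38 (adjusted p = 0.207), but was detected on no LEC CTR7 or LEC ACR7 array and on 1 of 3 DG ACR7 arrays. Notch1, a receptor of the Notch list, rose in the LEC with a fold change of 1.53 (adjusted p = 0.0226) and had a difference of -0.65 (adjusted p = 0.118), and Id4 had -0.68 (adjusted p = 0.175).

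For lists of strongly expressed genes the direction of the difference followed the scaling. Of 52 cytosolic ribosome genes, 45 had a lower effect in the DG than in the LEC, and their median of -0.45 became -0.10 after quantile normalization and 0.32 after median centring. The same medians were -0.28, 0.04 and 0.48 for 36 genes of complexes III, IV and ATP synthase, -0.28, 0.06 and 0.38 for 16 glycolytic genes, and -0.24, 0.03 and 0.42 for 28 genes of vesicles and transmitter release. Over all genes they were 0.04, -0.02 and 0.34. Medians over the 2899 brightest genes were -0.12 and, after quantile normalization, -0.01, and over the 2899 dimmest 0.12 and -0.03. The wider spread of log2 intensities on DG ACR7 arrays, given above, went with this, and its part was not tested.

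Rps26 and Rpl37, ribosomal proteins, had differences of -0.77 and -0.98, Atp5b and Atp5g3, subunits of ATP synthase, of -1.05 and -0.68, and Eno1b and Eno2, enolases, of -0.71 and -0.63, none of them called. Rps26 and Rpl23 were called lower in the DG effect alone. Nsf, which recycles vesicle fusion proteins, had -0.78 and was not called either. Doc2b, a calcium sensor of release, rose in the LEC from 7.25, 7.10 and 8.60 to 9.07, 9.05 and 9.07 (fold change 2.67). Its difference was -1.51 (adjusted p = 0.0824), -1.98 without LEC CTR7 replicate 3 and -1.23 without LEC CTR7 replicate 2.

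**Figure D5:**
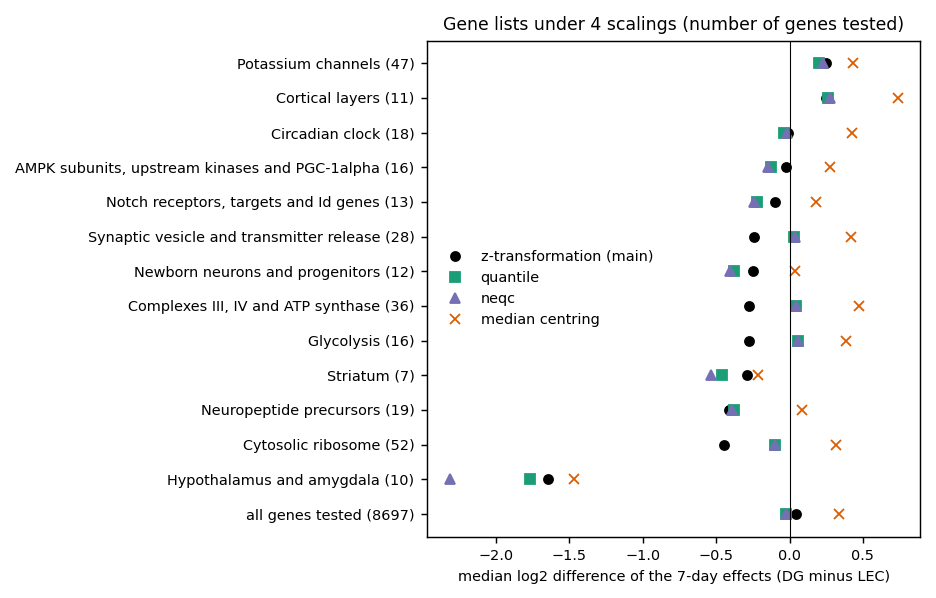
Median log2 difference of the 7-day effects (DG minus LEC) over the genes of 13 lists and over all genes tested, under 4 scalings of the arrays. Hypothalamus and amygdala, striatum, potassium channels and cortical layers keep their side of 0 under all 4, and the other lists do not. Under median centring the median of all genes is 0.34, so 0 is not the level of all genes there. In that scaling potassium channels are at 0.43, neuropeptide precursors at 0.08 and newborn neurons at 0.04.

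The same difference was formed for day 14, with ACR14 and the second of the control sets that the labels give for that day, in other mice. It was called for no gene in limma's test, with 504 genes at an unadjusted p under 0.05 and 1 gene (0.0115%) at a false discovery rate under 0.3. Of the 22 genes called at day 7, 5 kept their sign in the 14-day difference, and of all genes 41.59% did. Nudt5 had a 14-day difference of -0.47 in place of 1.02, and Ahi1 of 0.32 in place of -1.54. Whether the difference itself changed from day 7 to day 14 was not tested.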

How the data were processed

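Per the labels, RNA of DG and LEC was hybridised to Illumina mouse bead arrays. The authors deposited intensity values extracted with GenomeStudio 1.6.0 and not normalized between arrays, a detection p-value for each probe, and a z-score of the log intensity within each array. Background subtraction is not given in the sources used here. Intensities were taken to log2, z-transformed within each array as in the study's methods, multiplied by the mean SD of all 54 arrays (1.799) and shifted by their mean (7.198). The deposited score differed from the recomputed one by 0.

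Probes entered the fit with a detection p of at most 0.02 on every array of at least 1 of the 4 groups, which left 12498 of 25697 probes. The brightest probe stood for each gene, giving 8697 genes. Of the 25697 probes, 23978 had 1 symbol, 1719 none and 0 several, and the symbols of 23962 were found in RefSeq for GRCm38.p6.

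One limma 3.58.1 model (with R 4.3.3 and statmod 1.5.0) held all 54 arrays with a mean for each group and the mouse as a random block (consensus correlation -0.0614), so groups share an estimate of the spread. Same-mouse deviations from group means correlated at -0.312 to -0.12 between regions. Contrasts were the difference of effects, each region's effect, their mean and the 14-day difference, all two-sided, with Benjamini-Hochberg adjustment over all genes. Beyond the number in the titles nothing states that samples of a group were separate mice, so p-values measure the spread between these samples, and 3 arrays per group limit precision.

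The text names by rule the 8 largest called differences in each direction, the 6 largest called mean effects in each direction, the 2 genes with the smallest p in each list described, and genes the study had named. The remaining called differences and further shared genes were added after their values were seen. The groups, comparisons, 47 gene lists and rules were chosen with earlier results of these data known. Alternatives were quantile normalization, neqc with an offset of 16, median centring, the deposited scores, other detection filters, every probe on its own, the 12 arrays alone, no mouse block, a replicate block, mice with both regions, each replicate left out and a false discovery rate of 0.3. Scripts were tested on simulated data.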

Additional observations from a re-analysis of the deposited data

Results flagged for a closer look

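The 7-day effects of the 22 genes below differed between DG and LEC by the test of the difference itself (limma, adjusted p under 0.05). The log2 differences, DG minus LEC, were 1.40 for Flrt2, 1.37 for Far1, 1.33 for Cd34, 1.30 for Pak7, 1.17 for Cdh12, 1.13 for Gtf3c6 and 1.10 for Npy5r. They were 1.05 for St3gal6, 1.05 for Stk17b, 1.02 for Nudt5, 0.97 for P2rx4, 0.93 for Pdcl, 0.68 for Nat1 and 0.62 for Ppp6c. In the other direction they were -2.20 for Hap1, -1.60 for Cpne6, -1.54 for Ahi1, -1.51 for Bcl11b, -1.16 for Myo5b, -0.997 for Prrc2b, -0.90 for Rcan3 and -0.81 for Fam126a. With 3 arrays per group, no array was left out of the main fit for outlying values. An added fit, given below, left out 2 arrays whose marker lists lay apart from their group.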

How the results depend on the processing

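No direction of the 34 called genes named from the difference or the mean effect turned under the 24 alternatives (23 where a gene fell out of a filter), but most calls did not hold throughout. Sizes moved by over 1.5 times for 13 of them. Under median centring the differences were -0.27 for Prrc2b, -0.64 for Cpne6, -0.72 for Bcl11b, -0.42 for Rcan3, -0.43 for Fam126a, -0.80 for Ahi1, -1.44 for Hap1 and 1.07 for Ppp6c, and the mean effect of Zeb2 was -0.36. Quantile normalization and neqc gave -0.93 for Cpne6, and neqc -2.08 for Myo5b and a mean effect of -1.12 for Gpr26. Mice measured in both regions gave 0.69 for Cd34, 0.52 for P2rx4, -0.66 for Prrc2b and -0.57 for Rcan3. In the difference of effects Nudt5 kept its call in 19 settings, Ahi1 in 17 and Nat1 in 5. With 3 arrays per group, counts of calls moved with single arrays. Leaving out each array in turn gave 0 to 114 genes for the difference, 0 to 474 for the DG, 10 to 300 for the LEC, 4 to 187 for the mean effect, 0 to 92 genes called in a single region and in the difference (18 in the main setting) and 0 to 3 for the 14-day difference.

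The counts below are in the order difference, DG, LEC, mean effect and genes of a single region, with those within 1.5 times of the main count left out. Quantile normalization gave 5 genes for the difference, 12 for the DG and 5 of a single region, and neqc gave 5, 6, 28 for the mean effect and 5 of a single region. Median centring gave 1779 for the DG, 42 for the LEC and 161 for the mean effect, and moved the median difference of all genes from 0.04 to 0.34. Without a detection filter 7 genes were called in the difference, 7 in the DG and 4 in a single region. Every probe on its own gave 11, 217 and 10, and detection on all 12 arrays gave 72 for the LEC. The 12 arrays alone gave 0, 0, 44 for the LEC and 0 of a single region. Mice measured in both regions gave 0 for the difference, the LEC, the mean effect and a single region. A false discovery rate of 0.3 gave 1625, 1901, 690, 1038 and 1241, and 1 gene for the 14-day difference. Leaving out both DG ACR7 replicate 2 and LEC CTR7 replicate 3, chosen after seeing the data, gave 66, 0, 308, 164 and 51, and 3 for the 14-day difference. The cause of these shifts was not tested.

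With the replicate number as a block in place of the mouse, 20 genes were called in the difference, 18 of them among the 22, with 16 in the DG, 112 in the LEC and 29 in the mean effect. Same-numbered CTR7 and ACR7 arrays correlated in their deviations at -0.129 to 0.286 in the DG and -0.232 to 0.141 in the LEC. Whether same-numbered samples shared more than a number was not tested. Without a mouse block the DG count was 74.

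Differences of genes not called turned sign for Atp5b (0.0212 with quantile normalization, 0.0207 with neqc and 0.0187 with median centring) and Atp5g3 (0.15, 0.15 and 0.35). Under median centring alone they turned for Aprt (0.14), Dbp (0.42), Eno2 (0.28), Nsf (0.21) and Rpl37 (0.0384).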
